A study of Mus musculus with 28 samples.

Results

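The genes described here are the chaperone and heat shock protein genes, chosen by symbol alone: those that begin with Hspa, Hspb, Hsp90, Hsph, Hspd, Hspe, Dnaja, Dnajb or Dnajc, or with Cct and a number. The rule found 81 genes among 18193, represented by 200 of the 34945 probe sets that carry 1 gene symbol. They comprised 14 HSP70 and HSP110 genes, 27 DNAJC, 13 DNAJB and 4 DNAJA genes, 9 CCT genes, 2 HSP90 genes (Hsp90aa1 and Hsp90b1; Hsp90ab1 was not analysed here), the 2 subunits of the mitochondrial chaperonin, and 10 genes with an Hspb symbol. Among the last, Hspb11 (also known as Ift25, an intraflagellar transport protein), Hspbp1 and Hspbap1 share the letters of the small heat shock proteins and not their fold. One probe set was used for each gene, the brightest. The study measured RNA from adult male C57BL/6 mice on 28 one-colour Affymetrix arrays, comparing wild type (WT) animals with animals null for GRTH (KO, GRTH-/-), a testis RNA helicase encoded by Ddx25. Its 10 groups included spermatocytes (4 WT and 4 KO arrays), round spermatids (3 and 3), Leydig cells (2 and 2) and RNA of polysomes from whole testis (3 and 3). The other groups were RNA of WT polysomes immunoprecipitated with a GRTH antibody (2) or with control IgG (2). Germ cell fractions were separated by centrifugal elutriation and polysomes on sucrose gradients. The labels name no treatment, time course or cell-type-specific driver of the deletion, and they do not say which arrays came from separate animals, so p-values measure the spread between these arrays, which may be technical.

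Chaperones of the HSP70 family bind exposed stretches of unfolded protein and release them in a cycle driven by ATP. J-domain proteins (the DNAJA, DNAJB and DNAJC genes) bring clients and start the ATP hydrolysis, and HSP110 proteins and BAG proteins exchange the nucleotide. HSP90 and the ring-shaped chaperonins (CCT in the cytosol, Hspd1 with its lid Hspe1 in mitochondria) act on later or more enclosed folding steps. Male germ cells are known for their own forms of these genes: Hspa2 is the HSP70 of meiotic spermatocytes, Hspa1l the HSP70 of spermatids, and Hspa4l a testis-rich HSP110. Transcription stops as spermatids condense their nuclei, so mRNA made in round spermatids is stored and translated later.

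Ddx25 itself fell in KO samples to 4.87% of the WT mean in polysomes, 20.7% in spermatocytes, 25.4% in round spermatids and 25.1% in Leydig cells. The cell fractions were not pure by their markers. All 14 elongating spermatid markers tested (protamines, transition proteins and others) were lower in KO in each of the 4 comparisons, with median log2 differences of -2.87 in polysomes, -0.97 in spermatocytes, -0.82 in round spermatids and -0.64 in Leydig cells. Their summed signal was 214000 to 216700 in the WT Leydig fraction against 138300 to 167600 in WT spermatocytes, so that the fraction labelled Leydig cells held much germ cell RNA. Its Leydig markers summed to 30950 to 31000 in WT and 57170 to 58070 in KO. Less RNA per cell and fewer cells of a type cannot be told apart in such bulk samples, and the part of these markers in the results below was not tested. Replicate arrays of a group differed from each other by a standard deviation over genes of 0.0765 to 0.0884 on the log2 scale in Leydig cells, 0.122 to 0.221 in spermatocytes, 0.162 to 0.28 in round spermatids, 0.449 to 0.713 in polysomes and 1.01 to 1.13 in the precipitates. Signals are linear array intensities scaled to a trimmed mean of 500 on each array, and differences are on the log2(signal + 16) scale with standard errors (SE) from limma.

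Hspa1l was the member with the steepest rise from meiotic to postmeiotic cells and, in polysomes, the deepest fall in KO. It is shown first with the promoter from which it is read, because it shares its neighbourhood with a stress-inducible relative: Hspa1a, which is transcribed the other way, starts 547 bases from it on chromosome 17. The windows run from 250 bases before to 50 after the RefSeq start site of GRCm38.p6, on the minus strand at chr17:34972107-34972406 for Hspa1a and on the plus strand at chr17:34972453-34972752 for Hspa1l. Capitals mark facing pairs of heat shock element units (GAANNTTC or TTCNNGAA) and the cAMP response element with 1 base open (TGACGTNA), the type of site that the spermatid activator CREM is known to bind.
Hspa1l: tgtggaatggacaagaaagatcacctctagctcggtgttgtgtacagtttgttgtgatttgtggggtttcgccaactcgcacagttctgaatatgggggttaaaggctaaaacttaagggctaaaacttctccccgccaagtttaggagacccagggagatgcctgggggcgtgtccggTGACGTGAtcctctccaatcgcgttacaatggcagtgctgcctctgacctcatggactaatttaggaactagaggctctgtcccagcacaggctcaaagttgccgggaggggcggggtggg
Hspa1a: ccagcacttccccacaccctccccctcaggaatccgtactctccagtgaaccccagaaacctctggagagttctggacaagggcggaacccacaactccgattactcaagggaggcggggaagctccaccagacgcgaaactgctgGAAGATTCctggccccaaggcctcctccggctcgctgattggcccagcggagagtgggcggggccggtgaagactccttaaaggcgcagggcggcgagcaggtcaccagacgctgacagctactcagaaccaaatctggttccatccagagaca
The Hspa1l window holds TGACGTGA at position -71 and no heat shock element pair, and the Hspa1a window holds GAAGATTC at -104 and no cAMP response element in this form. Such matches describe letters only.

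The signal of Hspa1l in WT spermatocytes was 1997, 1999, 2189 and 2171, and in WT round spermatids 19100, 17500 and 17180. The groups stood far apart, a rise of 3.09 ± 0.07 (SE) on the log2 scale, or 8.52-fold (adjusted p 2.51e-09, limma). In KO round spermatids it measured 5996, 5767 and 5966, which was 33% of the WT mean (-1.60 ± 0.07, adjusted p 4.82e-06). KO spermatocytes had 1063, 1126, 1051 and 1081, or 51.7% of WT (-0.94 ± 0.05, adjusted p 1.17e-06). The KO arrays lay below every WT array in both cell types.

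On polysomes Hspa1l measured 6818, 7347 and 4873 in WT and 1196, 1117 and 731.1 in KO. That left 16% of the WT mean, a 6.21-fold lower level (-2.64 ± 0.26, adjusted p 0.00053), with no overlap between the groups. The Leydig fraction had 7411 and 7463 in WT and 2583 and 2576 in KO, or 34.7% of WT (-1.52 ± 0.02, adjusted p 2.38e-05). The precipitates had 3811 and 4464 with the GRTH antibody and 5325 and 7889 with IgG (-0.65, adjusted p 0.98). Ordered by mean signal, WT round spermatids (17930) came first, followed by WT Leydig cells (7437), IgG precipitates (6607), WT polysomes (6346) and KO round spermatids (5910). GRTH precipitates (4138), KO Leydig cells (2579), WT spermatocytes (2089), KO spermatocytes (1080) and KO polysomes (1015) followed. Arrays of neighbouring groups overlapped from WT Leydig cells through KO round spermatids and again between KO spermatocytes and KO polysomes, and nowhere else in this order.

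**Figure D1:**
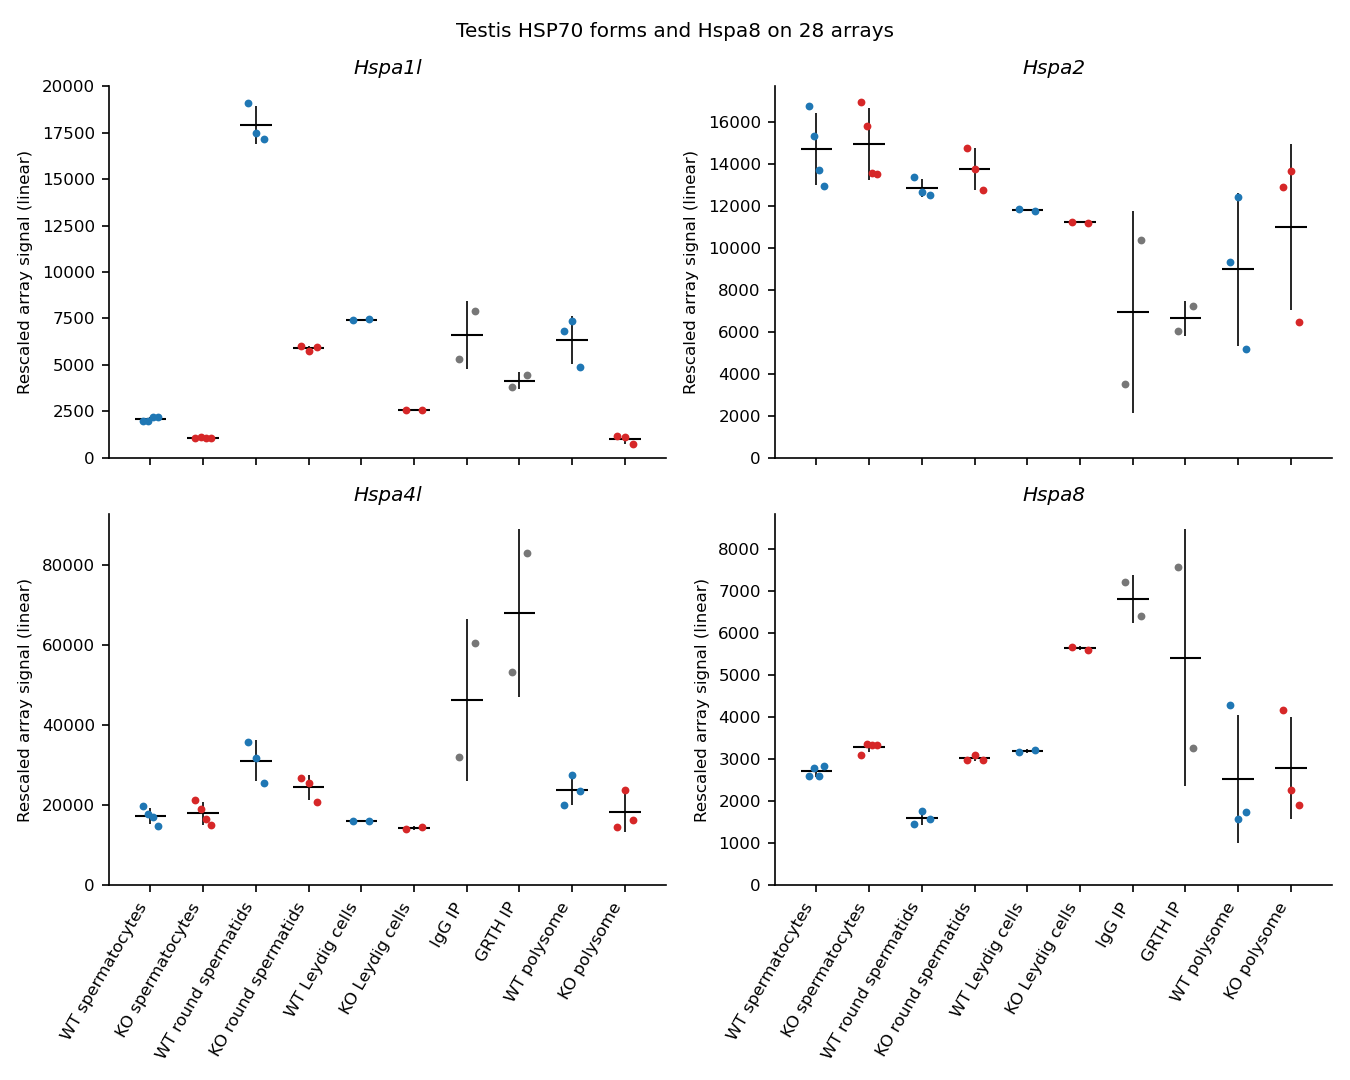
Signal (linear intensity, each axis from 0) of Hspa1l, Hspa2, Hspa4l and Hspa8 on each array of the 10 groups. Points are arrays, blue for WT, red for KO and grey for precipitates, lines are group means and bars ± SD. Hspa1l drops from 17930 to 5910 on average between WT and KO round spermatids, whereas the Hspa2 points of WT and KO overlap in spermatocytes, round spermatids and polysomes.

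Hspa2, the meiotic HSP70 that is known to be needed for spermatocytes to complete the first division, was bright and nearly level across the cell fractions. WT spermatocytes measured 16760, 15340, 13720 and 12920, and KO spermatocytes 16960, 15810, 13570 and 13500. WT round spermatids had 13360, 12650 and 12530, and KO round spermatids 14740, 13760 and 12750. The genotypes overlapped in both. The KO difference was 0.03 in spermatocytes (adjusted p 0.86) and 0.10 ± 0.08 in round spermatids (95% interval -0.08 to 0.27, adjusted p 0.30), and it passed the threshold in round spermatids under quantile normalisation (0.44).

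On polysomes Hspa2 gave 9299, 12440 and 5166 in WT and 12900, 13640 and 6452 in KO. The difference of 0.31 ± 0.39 (95% interval -0.56 to 1.18, adjusted p 0.70) was smaller than the spread between arrays, and its interval does not reach the fall of Hspa1l. From WT spermatocytes to WT round spermatids Hspa2 moved by -0.19 (adjusted p 0.086), which passed the threshold with the replicate number as a block (adjusted p 0.016) and under quantile (-0.77) or median scaling (-0.36). The Leydig fraction had 11830 and 11770 in WT and 11240 and 11200 in KO, a small fall (-0.07, adjusted p 0.026) that quantile normalisation turned to 0.065.

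Hspa4l had 5 probe sets that did not move together between the stages, so its direction there depends on which is read. The brightest, used throughout, measured 19700, 17840, 17000 and 14760 in WT spermatocytes and 35820, 31900 and 25570 in WT round spermatids. These groups did not overlap, a rise of 0.84 ± 0.13 (adjusted p 0.00026) that fell to 0.10 under quantile normalisation (adjusted p 0.061). The other probe sets fell by 1.32, 1.71, 1.85 and 2.25, and the mean over probe sets fell by 1.26. The next brightest went from 6708, 6395, 6657 and 6525 in WT spermatocytes to 1811, 1960 and 1678 in WT round spermatids. Which transcripts each probe set reads was not analysed here.

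**Figure D2:**
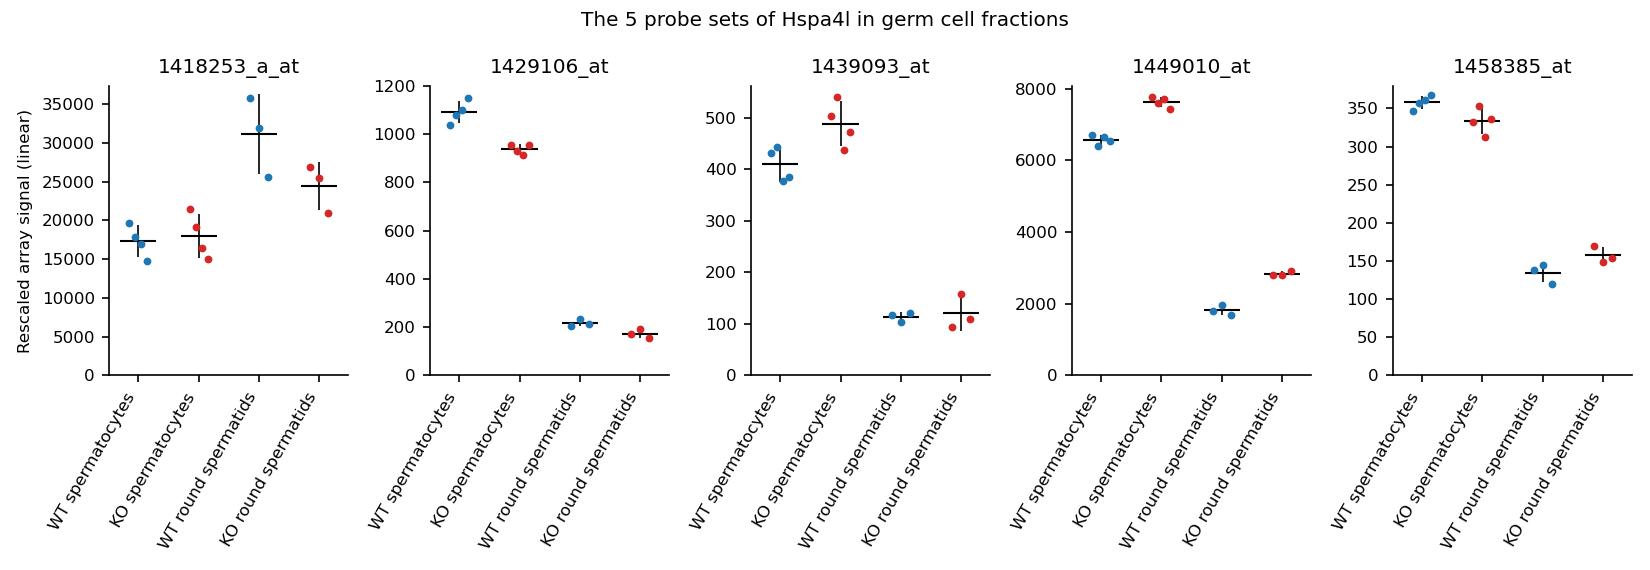
Signal (linear intensity, each axis from 0) of the 5 Hspa4l probe sets on each array of WT and KO spermatocytes and round spermatids; points are arrays (blue WT, red KO), lines group means and bars ± SD. The brightest probe set is higher in WT round spermatids than in WT spermatocytes, and the other 4 are lower.

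In KO, the brightest Hspa4l probe set measured 21400, 19100, 16460 and 15080 in spermatocytes and 26900, 25480 and 20920 in round spermatids. The spermatocyte values overlapped WT (0.05, adjusted p 0.77). The round spermatid difference of -0.34 ± 0.14 missed the threshold (adjusted p 0.071) and passed it with the replicate block (adjusted p 0.0051) or without WT array 3 (0.013). The next brightest probe set was higher there, by 0.64 (2800, 2810 and 2917 against 1811, 1960 and 1678). On polysomes, WT arrays gave 20110, 27630 and 23670 and KO arrays 14700, 23900 and 16300, which overlapped (-0.40 ± 0.25, adjusted p 0.41). Hspa4, the general HSP110 relative, measured 8979, 8463 and 9489 in WT and 9254, 8507 and 9193 in KO round spermatids, with a difference of 0.00 (adjusted p 0.98).

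Differences between a testis form and its general relative were also taken within each array, which removes the scale of the array. The Hspa1l to Hspa8 log2 difference was lower in KO by 2.85 in polysomes, 1.22 in spermatocytes and 2.51 in round spermatids, and higher by 3.85 in WT round spermatids than in WT spermatocytes, with no overlap in any of the 4. Exact two-sided permutation tests gave p 0.10, 0.029, 0.10 and 0.057, each the smallest that these group sizes allow, and 0.17 after adjustment over the 12 tests of this kind. Hspa2 against Hspa8 changed by 0.10 in polysomes (exact p 0.80), -0.25 in spermatocytes (0.17), -0.82 in round spermatids (0.10) and 0.57 between stages (0.057). Hspa8 itself moved, with mean signals of 2716 in WT spermatocytes, 1603 in WT round spermatids and 3030 in KO round spermatids. The changes against Hspa8 therefore hold its own change as well. For Hspa4l against Hspa4 the changes were -0.41 (exact p 0.30), -0.01 (0.94), -0.34 (0.30) and 0.87 (0.057).

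Over the 10 group means, the genes whose pattern was most like Hspa1l were Tex37 (Pearson r 0.994), Paqr5 and Spata18 (both 0.991), 4930571K23Rik (0.99) and Clpb (0.989), among 9097 genes searched. Nearest to Hspa2 were Ccdc73 (0.983), Nkiras2 (0.975), Tktl2 (0.974), Cfap57 and Trim24 (both 0.973). Hspa4l was followed by Sucla2 (0.993), Ube2d3 (0.989), Dynll1 (0.988), Gtsf1 (0.986) and Pifo (0.98). These are descriptions over 10 groups that share arrays' scaling.

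Between WT spermatocytes and WT round spermatids as many chaperone genes rose as fell, and Hspa1l, the testis form of HSP70, rose by 3.09. Of 70 members tested, 29 rose and 29 fell, or 82.9%, against 87.2% of all 9097 genes (36.2% higher and 51% lower), so that the share that changed was near the background. The median difference was 0.00 over members and -0.24 over all genes. All 12 DNAJB genes tested changed, 8 up and 4 down (median 0.53), and so did the 4 DNAJA genes, 1 up and 3 down. The DNAJC genes went both ways, 8 up and 12 down of 24. Of the HSP70 and HSP110 genes 3 rose and 5 fell of 10.

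After Hspa1l the largest rises were those of Dnajb7 (2.71 ± 0.07), Cct8l1 (2.47 ± 0.06), Dnaja4 (2.45 ± 0.09), Dnajb8 (2.43 ± 0.07), Dnajc5b (2.12 ± 0.08), Dnajb4 (2.08 ± 0.07) and Dnajc18 (1.31 ± 0.06). Dnajb8 encodes a J protein of the testis that is known to hold back protein aggregation. It rose from 2294, 2361, 2706 and 2571 in WT spermatocytes to 13940, 12710 and 13610 in WT round spermatids. Dnajc5b, the testis form of cysteine string protein, rose from 5421, 5319, 4738 and 4787 to 24170, 21710 and 20350. Cct8l1, a CCT-like gene, rose from 612.9, 648.6, 682.3 and 646.2 to 3630, 3711 and 3616. Dnajb13, a radial spoke protein of the sperm tail, rose by 1.28 ± 0.06. No WT round spermatid array reached down to the spermatocyte range for any of these. Other probe sets of Dnajb4 and Dnajc18 fell (by 0.40 and 0.88), and the mean of the Dnajc18 probe sets was -0.06.

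The deepest falls were those of Dnajc28 (-2.63 ± 0.07), Dnajc12 (-2.39 ± 0.07), Dnajc11 (-1.90 ± 0.06), Hspa14 (-1.54 ± 0.06), Cct6a (-1.18 ± 0.07), Hspb6 (-1.15 ± 0.07), Dnaja3 (-1.10 ± 0.06) and Dnajb11 (-1.08 ± 0.08). Hspa14 is a ribosome-associated HSP70, Dnaja3 and Dnajc11 are mitochondrial, and Dnajb11 is a J protein of the endoplasmic reticulum. Dnajc12, which is known to assist aromatic amino acid hydroxylases, fell from 366.3, 401.2, 360 and 373.4 to 59.35, 53.86 and 63.23. Other probe sets of Dnajc11 and Dnaja3 rose, by 0.58 and 0.93. Probe sets past the threshold in both directions were also found for Cct3, Dnajb1, Dnajb6, Dnajc17, Hspa5, Hspa9 and Hsph1. In Hsph1, an inducible HSP110, the brightest probe set rose by 0.94 and another fell by 0.99.

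Among the core subunits of the cytosolic chaperonin with a Cct symbol, Cct2 rose by 0.51 and Cct6a and Cct8 fell by 1.18 and 0.87. Cct3 (0.03), Cct4 (0.04), Cct5 (-0.13), Cct6b (0.08) and Cct7 (0.15) missed the threshold. These directions depend on the scaling for bright genes: under quantile normalisation Cct2 was -0.07, Cct3 -0.60, Cct4 -0.59, Cct6b -0.43, Cct7 -0.45 and Hsp90aa1 -0.19. Hsp90aa1, the inducible cytosolic HSP90, rose by 0.51 ± 0.17 (adjusted p 0.017) on the scale used here and missed the threshold without WT round spermatid array 1 or 2 (adjusted p 0.069 and 0.055), and Hsp90b1, its counterpart in the endoplasmic reticulum, fell by 0.37. The mitochondrial chaperonin rose, Hspd1 by 0.58 and Hspe1 by 0.41. The constitutive HSP70 Hspa8 fell by 0.76 ± 0.08, from 2614, 2794, 2604 and 2851 to 1459, 1773 and 1577.

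Polysomal RNA of the GRTH null testis held less mRNA of the spermatid chaperone forms, and no member was called higher in the fit without a replicate block. Of 68 members tested, 8 fell and 0 rose (11.8%), against 6.34% of all genes, of which 0.572% were higher and 5.77% lower. They were Hspa1l, Dnajc5b, Dnajb8, Dnajb7, Hspb9, Dnaja4, Dnajb4 and Dnajb3. With the replicate number as a block, 16 fell and 5 rose, against 24.7% of all genes. The rises with the block were those of Hspb1 (0.74, blocked adjusted p 0.0067), Dnajc14 (0.63, 0.013), Dnajc16 (0.56, 0.024), Dnajc3 (0.55, 0.032) and Dnajc5 (0.54, 0.033). Hspb1 overlapped between genotypes and the others did not. The median difference was -0.01 over members and 0.13 over all genes. DNAJB genes accounted for 4 of the 8 falls (of 12 tested), and DNAJA, DNAJC, HSP70 and Hspb genes for 1 each.

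Dnajc5b measured 8003, 6157 and 10210 on WT polysomes and 1735, 1742 and 1532 on KO polysomes (-2.24 ± 0.23, adjusted p 0.00058). Dnajb8 had 3516, 6846 and 2438 against 881.5, 1181 and 577.6 (-2.18 ± 0.39, adjusted p 0.01). Dnajb7, another testis J protein, had 1526, 1723 and 2335 against 499.5, 690.2 and 543 (-1.65 ± 0.24, adjusted p 0.0029). In none of these did a KO array reach the lowest WT array. Hspb9, a small heat shock protein of the testis, had 9075, 10040 and 6740 against 4054, 2088 and 2358 (-1.64 ± 0.29, adjusted p 0.009). Dnaja4, a J protein with a zinc finger, went from 7199, 7990 and 6792 to 3999, 2936 and 2530 (-1.24 ± 0.23, adjusted p 0.011). For Dnajb4 the signals were 2567, 3412 and 3378 in WT and 1470, 1010 and 1639 in KO (-1.19 ± 0.25, adjusted p 0.02). Dnajb3, a J protein of spermatids and sperm, had 9742, 11990 and 12030 against 5345, 5142 and 4448 (-1.17 ± 0.20, adjusted p 0.0077). These groups did not overlap either. Other probe sets of Dnajb4 measured -0.16 and 0.36.

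Among the falls that missed the threshold without the block and passed it with the block were Dnajc18 (-0.98, adjusted p 0.051), Cct8l1 (-0.83, 0.067), Cct6b (-0.69, 0.068), the testis form of Cct6a, and Dnajc15 (-0.82, 0.068). The blocked adjusted p was 0.00085 for Dnajc18, 0.003 for Cct8l1, 0.008 for Cct6b and 0.0058 for Dnajc15. The other core CCT subunits lay between -0.17 (Cct4) and 0.24 (Cct8), with adjusted p of at least 0.52. Hspd1 (0.51, adjusted p 0.35), Hspe1 (0.15), Hspa8 (0.21, adjusted p 0.82), Hsp90aa1 (0.08) and Hsp90b1 (0.28) did not pass it in either fit. The elongating spermatid markers fell with these genes: their summed signal was 249800 to 487800 on WT and 31810 to 60040 on KO polysomes, and its part in the falls was not tested.

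The polysome calls rest on how the arrays are scaled and paired. Of these columns 4 were deposited on another scale, and with the values as deposited 0 members passed. The descriptions of 3 polysome arrays name another sample than their titles do, and without the arrays in question Hspa1l (-2.41, adjusted p 0.019), Dnajc5b (-2.63, 0.011) and Dnajb7 (-1.90, 0.036) still passed, against 8 in the full set. Without the polysome arrays of lowest deposited signal, a choice made after seeing the data, 5 passed. Leaving out single arrays ended the call of Dnaja4 (without WT 1 or KO 3, adjusted p 0.052 both) and of Dnajb4 (without WT 3, KO 1 or KO 2, adjusted p 0.055 to 0.075).

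**Figure D3:**
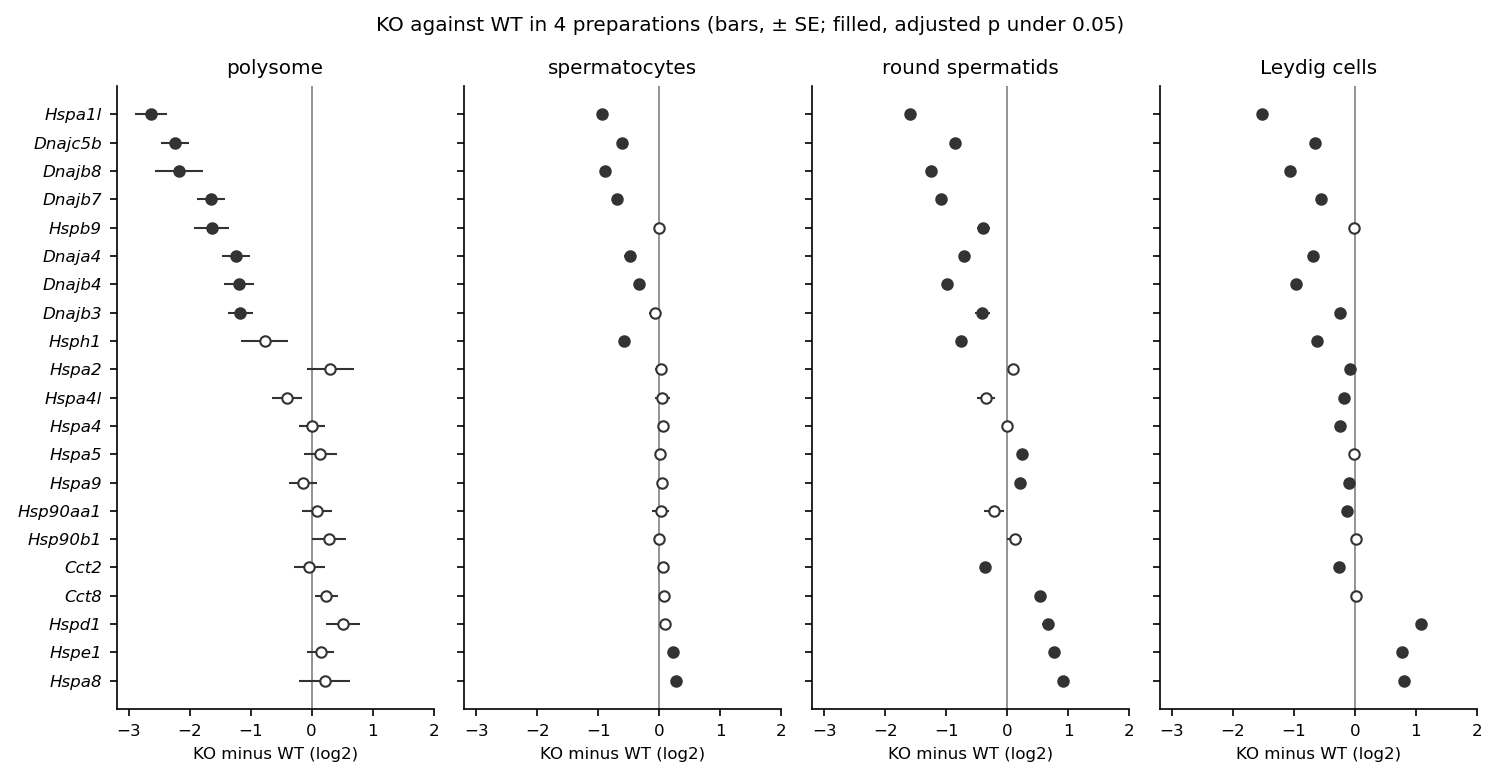
KO minus WT log2 difference of 21 members in polysomes, spermatocytes, round spermatids and Leydig cells; points are differences, bars ± SE, and filled points have an adjusted p under 0.05 (limma). Hspa1l is lower in all 4, by 2.64 in polysomes, and Hspa2 stays within 0.31 of 0 in all 4.

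The polysome falls were set against the stage change, which was measured on other arrays. Of the 10 members that rose 2-fold or more from WT spermatocytes to WT round spermatids and were tested on polysomes, 6 (60%) were lower on KO polysomes, with a median of -1.21. Of 9 that fell 2-fold or more none was lower, and of 48 others 2 (4.17%) were, namely Hspb9 and Dnajb3, which rose by 0.65 and 0.83 between stages. The same classes over all genes held 480 of 1458 (32.9%, median -0.58), 1 of 2106 (0.0475%) and 43 of 4429 (0.971%). Across the 67 members the stage and polysome differences correlated with r = -0.776 (Spearman rho = -0.697), and across 7993 genes with r = -0.592 (rho = -0.486). Genes are not independent replicates, and no p is given. In the Leydig fraction all 10 members with that rise were lower in KO, against 1138 of 1629 genes (69.9%).

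**Figure D4:**
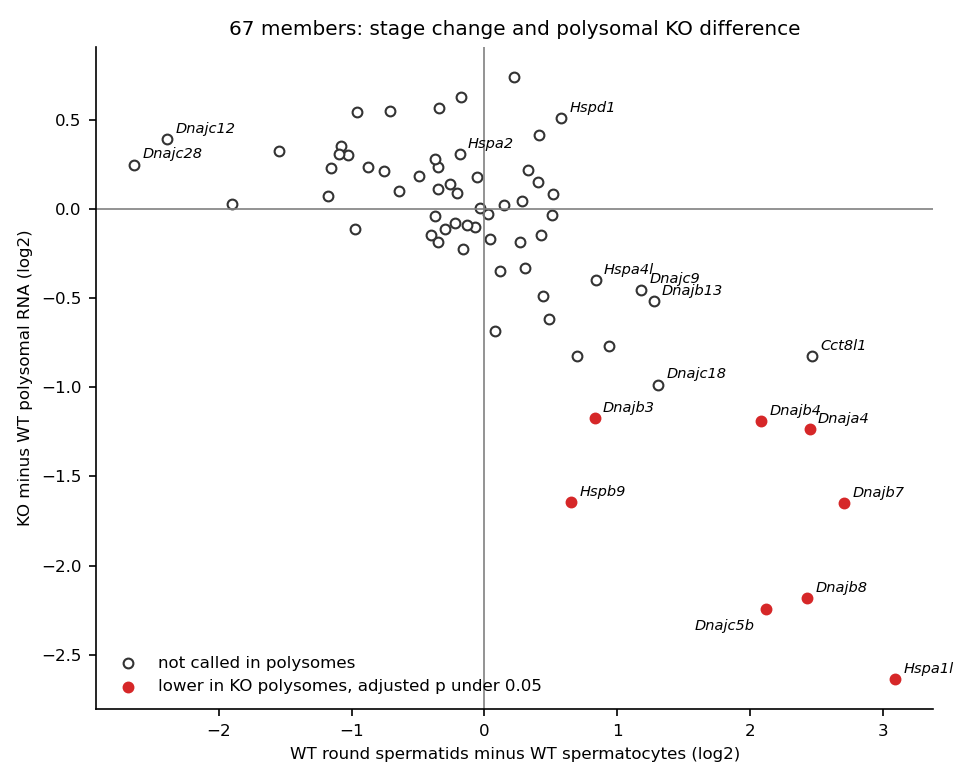
Each point is 1 of 67 members: log2 difference of WT round spermatids minus WT spermatocytes (horizontal) against KO minus WT on polysomes (vertical), filled where the polysome difference passed the threshold. Hspa1l lies at 3.09 and -2.64, and 6 of the 10 members with a rise of 2-fold or more were lower in KO with an adjusted p under 0.05 (limma).

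In KO spermatocytes 6 of the 8 members that were lower on polysomes were lower as well. Dnajb3 (-0.08, adjusted p 0.6) and Hspb9 (-0.01, adjusted p 0.93) did not pass. Such a shared fall was common over all genes: 412 of the 525 lower on polysomes were lower in all 3 cell fractions too. Of 71 members tested in spermatocytes 7 were higher and 12 lower (26.8%), against 37.4% of all genes, 19.6% higher and 17.8% lower. Median scaling gave 2 higher and 9 lower. After Hspa1l the falls were those of Dnajb8 (-0.89 ± 0.08), Dnajb7 (-0.69 ± 0.05), Dnajc5b (-0.61 ± 0.05), Hsph1 (-0.58 ± 0.06), Dnaja4 (-0.49 ± 0.09), Dnajb4 (-0.33 ± 0.07) and Dnajb13 (-0.31 ± 0.05). Dnajb8 measured 2294, 2361, 2706 and 2571 in WT and 1235, 1231, 1397 and 1460 in KO. Hsph1 had 1215, 1324, 1302 and 1363 against 799.8, 858.2, 906.6 and 903.1. Neither gene overlapped between genotypes. Elongating spermatid markers summed to 138300 to 167600 in WT and 78150 to 85490 in KO spermatocytes, and their part in these falls was not tested. Arrays 1 and 2 of each spermatocyte group, and arrays 3 and 4, were closer to each other (SD over genes 0.122 to 0.138) than to the rest (0.193 to 0.221). With each such pair averaged to 1 replicate, 7 members passed, 2 higher and 5 lower, all of them among the 19.

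The rises in KO spermatocytes were those of Hspb11 (0.50 ± 0.06, adjusted p 0.00016), Dnajc21 (0.36 ± 0.04), Dnajc5 (0.32 ± 0.06), Hspa8 (0.28 ± 0.05, adjusted p 0.002), Hspe1 (0.22 ± 0.08, adjusted p 0.0495), Dnajc14 (0.16) and Dnajc30 (0.14). Hspb11 went from 2094, 2170, 2416 and 2431 to 3184, 3185, 3198 and 3316, with every KO array above every WT array. Leydig markers were higher beside these rises, with sums of 6272 to 6865 in WT and 8528 to 9371 in KO spermatocytes, and their part was not tested. Hspa8 and Dnajc5 missed the threshold with the paired arrays averaged (adjusted p 0.071 and 0.07). Hspe1 lay at its edge and missed it without KO 3 or 4 or WT 1, 2 or 3 (adjusted p 0.082 to 0.12), and the call of Dnajc30 was lost with the block (adjusted p 0.066). None of the 9 CCT genes passed. With the block Cct5, Cct6a and Cct6b did, at adjusted p 0.047, 0.038 and 0.047. The endoplasmic reticulum HSP70 Hspa5 (0.00), the mitochondrial Hspa9 (0.05), Hspa4 (0.06) and Hsp90aa1 (0.02) stayed within their spread.

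KO round spermatids had the widest changes among the germ cells, with the spermatid J-domain genes and Hspa1l lower and Hspa8, the mitochondrial chaperonin and several DNAJC genes higher. Of 70 members tested 21 were higher and 22 lower (61.4%), against 63.4% of all genes (41% higher and 22.4% lower), a share near the background. The median difference was -0.04 over members and 0.15 over all genes. DNAJB genes mostly fell, 7 of 12 with 1 higher (median -0.35). DNAJC genes split, 9 higher and 8 lower of 23, and of the HSP70 and HSP110 genes 4 were higher and 3 lower of 11.

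Below Hspa1l, the falls were those of Dnajb8 (-1.24 ± 0.07), Dnajb7 (-1.09 ± 0.07), Dnajb4 (-0.98 ± 0.07), Dnajc5b (-0.85 ± 0.08), Hspa1a (-0.82 ± 0.14), Hsph1 (-0.75 ± 0.06) and Dnaja4 (-0.71 ± 0.06). Dnajb8 measured 13940, 12710 and 13610 in WT and 5696, 5507 and 5813 in KO. Hspa1a, the stress-inducible neighbour of Hspa1l, was dim at 217.2, 334.6 and 268 in WT and 145.7, 148.7 and 143.2 in KO. It has a near-identical copy, Hspa1b, from which its probes may not be distinct. In a fit over all probe sets, 2 of the 3 Hspa1b probe sets, both dim, measured a KO minus WT log2 difference of 0.82 (adjusted p 0.031) and 0.96 (adjusted p 0.056), so that only the first passed, and the third lay at 0.14. Hsph1 fell from 2498, 2513 and 2516 to 1432, 1518 and 1508, while its other probe set rose by 0.39. Dnajc2, a J protein of the ribosome exit site, had 8655, 8114 and 8819 against 5321, 5052 and 5911 (-0.65 ± 0.08). Dnajb9, Dnajb6, Dnajb3, Hspb9 and Dnajb13 were lower by 0.29 to 0.50. Other probe sets of Dnajb6, all bright, measured -0.07, 0.004 and 0.002, and those of Dnajb4 0.10 and 0.03.

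The largest rises belonged to Hspa8 and to the mitochondrial chaperonin pair. Hspd1 and Hspe1 are read from a single bidirectional region on chromosome 1, with start sites 216 bases apart, so their promoter windows overlap. They are shown because both genes were higher in KO round spermatids and KO Leydig cells and carry heat shock element letters. Such pairs also occur in windows of members lower in KO round spermatids: Cct2, Cct8l1, Dnaja4, Dnajb4, Dnajb6, Dnajc5g, Hspa1a and Hsph1. Dnajc10, Dnajc27 and Hspb6, which were higher there, hold them too. A link between these letters and the KO change was not tested. The windows are chr1:55087883-55088182 on the minus strand for Hspd1 and chr1:55087898-55088197 on the plus strand for Hspe1 (RefSeq, GRCm38.p6), and capitals mark the heat shock element pairs. A second RefSeq start site of Hspd1 lies 95 bases from that of Hspe1, and its window (chr1:55088194-55088493, minus strand) holds 0 such pairs.
Hspd1: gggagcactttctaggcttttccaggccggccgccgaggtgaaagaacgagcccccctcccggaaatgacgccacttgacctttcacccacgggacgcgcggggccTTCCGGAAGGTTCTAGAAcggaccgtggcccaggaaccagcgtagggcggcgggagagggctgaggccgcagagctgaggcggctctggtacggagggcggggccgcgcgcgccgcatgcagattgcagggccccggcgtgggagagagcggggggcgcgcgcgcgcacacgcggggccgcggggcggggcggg
Hspe1: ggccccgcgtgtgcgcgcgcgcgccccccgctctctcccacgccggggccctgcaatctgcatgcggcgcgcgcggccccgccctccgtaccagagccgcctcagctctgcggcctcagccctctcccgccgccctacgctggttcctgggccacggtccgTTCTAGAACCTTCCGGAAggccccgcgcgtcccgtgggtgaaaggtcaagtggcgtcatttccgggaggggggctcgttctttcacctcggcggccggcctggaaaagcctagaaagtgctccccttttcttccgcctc
The same run of letters is read from each side: 3 overlapping pairs, at positions -144, -139 and -134 of Hspd1 and at -89, -84 and -79 of Hspe1.

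Hspd1 measured 665, 787.5 and 705.4 in WT and 1107, 1070 and 1284 in KO round spermatids (0.67 ± 0.10, adjusted p 0.00074). Hspe1 had 598.3, 653.5 and 654.1 against 1057, 1147 and 1097 (0.78 ± 0.07, adjusted p 8.15e-05). Hspa8, the constitutive HSP70, had 1459, 1773 and 1577 against 2992, 3101 and 2997, or 1.89-fold (0.92 ± 0.08, adjusted p 8.9e-05). All KO arrays lay above all WT arrays for these genes. The Hspa8 probe set is of a kind that can also bind related transcripts. The KO values of Hspa8 in round spermatids came near those of KO spermatocytes (3109, 3361, 3344 and 3351).

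**Figure D5:**
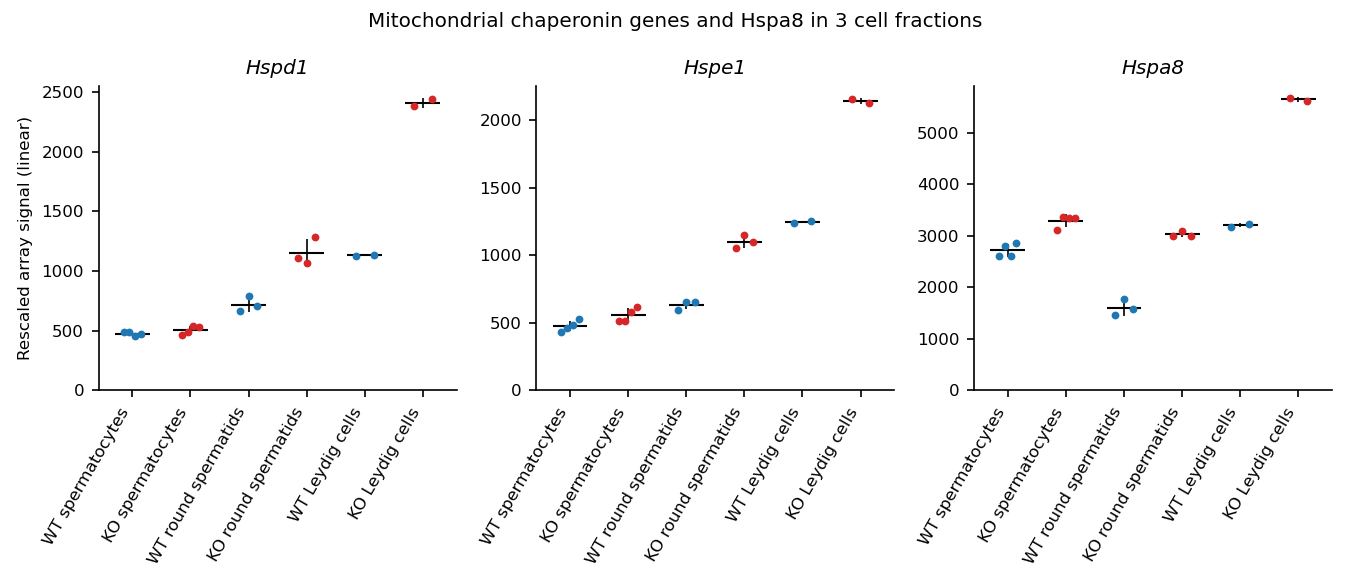
Signal (linear intensity) of Hspd1, Hspe1 and Hspa8 on each array of WT and KO spermatocytes, round spermatids and Leydig cells; points are arrays (blue WT, red KO), lines group means and bars ± SD. KO round spermatid and KO Leydig arrays sit above their WT arrays for all 3 genes, for example 1057 to 1147 against 598.3 to 654.1 for Hspe1 in round spermatids.

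Other rises in KO round spermatids were those of Hspb7 (0.65 ± 0.12), Dnajc8 (0.60 ± 0.09), a J protein of the spliceosome, Dnajc28 (0.57 ± 0.07), Dnajc16 (0.56 ± 0.11), Dnajc3 (0.54 ± 0.08), an endoplasmic reticulum J protein, and Cct8 (0.54 ± 0.08). Hspa5 (0.25, adjusted p 0.043) and Hspa9 (0.21, adjusted p 0.027) rose slightly, and both calls rested on single arrays. Hspa5 missed the threshold without WT 2 or 3 or KO 1 or 2 (adjusted p 0.097 to 0.14), and Hspa9 without WT 1 or 2 or KO 1 or 2 (0.061 to 0.096). Cct2 fell by 0.36 and Cct8l1 by 0.30, and under quantile normalisation Cct2 was 0.01, Cct3 0.34 and Cct4 0.32. Dnaja3 had 1 probe set higher (0.46) and another lower (-0.59). Dnajc17 lost its call with the block (adjusted p 0.061), and Hsp90aa1 (-0.22, adjusted p 0.27) gained one (0.017). Spermatocyte markers were higher in 5 and lower in 1 of 11 tested in KO round spermatids, and elongating spermatid markers summed to 376800 to 518300 in WT and 228700 to 285100 in KO. Peritubular markers summed to 11470 to 13150 in WT and 6030 to 6103 in KO, and Sertoli markers to 2232 to 2493 and 1229 to 1320. Leydig markers went the other way, from 868.3 to 932.1 in WT to 1281 to 1473 in KO, and so did spermatogonium markers, from 9234 to 10160 to 12100 to 12860. The part of these markers in the chaperone changes was not tested.

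The KO effect was then compared between round spermatids and spermatocytes with an interaction term. It differed for 31 of 70 members (44.3%), 18 more positive and 13 more negative in round spermatids, against 46% of all genes, 32.3% more positive and 13.7% more negative. Dnajc21, a J protein of ribosome biogenesis, moved in opposite directions: 2750, 2746, 2607 and 2697 in WT against 3346, 3390, 3669 and 3470 in KO spermatocytes (0.36), and 3768, 3718 and 3872 against 2576, 2628 and 2875 in round spermatids (-0.49). Neither cell type overlapped between genotypes, and the effects differed by -0.85 ± 0.07 (adjusted p 2.73e-06). The KO effect was more negative in round spermatids for Dnajc2 (-0.67), Hspa1l (-0.66), Dnajb4 (-0.66), Dnajb6 (-0.49), Cct2 (-0.41), Dnajb7 (-0.40) and Hspb9 (-0.38). It was more positive for Hspb7 (0.72), Dnajc28 (0.68), Hspa8 (0.64), Dnajc8 (0.62), Dnajc12 (0.61), Dnajc16 (0.59), Hspd1 (0.58) and Hspe1 (0.56). The Dnajb4 and Dnajb6 values are those of the brightest probe set, whose fall in KO round spermatids their other probe sets did not share. For Hspa4l the difference of -0.39 did not pass (adjusted p 0.13), and did so without WT round spermatid array 3 (adjusted p 0.04). With closely matched arrays averaged, 12 members differed instead of 31, Hspa1l among them.

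Between polysomes and round spermatids the KO effect differed for 1 of 69 members (1.45%), against 2.79% of all genes, 0.539% more positive and 2.25% more negative. That member was Dnajc5b, whose fall was deeper on polysomes by 1.40 ± 0.24 (adjusted p 0.012). Hspb9 (-1.25, adjusted p 0.062), Hspa1l (-1.04, adjusted p 0.065) and Dnajb3 (-0.77, adjusted p 0.082) came next and missed the threshold. With the replicate block 1 was more positive and 9 more negative, against 15.4% of all genes. With closely matched round spermatid arrays averaged, Dnajc5b missed the threshold (adjusted p 0.14), and Hspa1l passed it without WT polysome 3 (adjusted p 0.028) or KO polysome 1 (0.047).

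In the fraction labelled Leydig cells, 7 of the 8 members lower on KO polysomes were lower in KO, all but Hspb9 (-0.02, adjusted p 0.48), and Hspd1, Hspa8 and Hspe1 were higher. Over all genes, at least 412 of the 525 lower on KO polysomes were lower in this fraction too. Of 72 members tested here 14 were higher and 37 lower (70.8%), against 77.9% of all genes, 38.6% higher and 39.3% lower. With 2 arrays a group and close replicates, small differences passed. Quantile normalisation gave 21 higher and 27 lower, and median scaling 11 and 56. After Hspa1l the falls were those of Dnajb8 (-1.06 ± 0.02), Dnajb4 (-0.96 ± 0.02), Dnajb5 (-0.87 ± 0.06), Dnaja4 (-0.68 ± 0.02), Dnajc5b (-0.65 ± 0.02), Hsph1 (-0.62 ± 0.02) and Dnajc2 (-0.56 ± 0.02). Dnajb8 had 5857 and 5939 in WT and 2833 and 2827 in KO. Of the 13 DNAJB genes 10 were lower and 0 higher, and of the 9 CCT genes 6 were lower by 0.08 to 0.26. The bright CCT directions turned under quantile normalisation for Cct3 (0.06) and Cct4 (0.01).

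Hspd1 rose in KO Leydig cells from 1126 and 1138 to 2380 and 2438 (1.08 ± 0.02, adjusted p 2.9e-05). Hspa8 rose from 3176 and 3236 to 5677 and 5610 (0.81 ± 0.02), and Hspe1 from 1242 and 1252 to 2160 and 2129 (0.77 ± 0.02). Dnajc5 (0.59), Hspa13 (0.53), Dnajc3 (0.52), Dnajc17 (0.50) and Dnajc24 (0.41) followed. The macrophage markers rose in 7 of 7 tested, with summed signals of 3425 to 3485 in WT and 8277 to 8295 in KO, and the Leydig markers in 6 of 6 (median 1.27). The elongating spermatid sum went from 214000 to 216700 in WT to 136800 to 139400 in KO. Their part in the chaperone changes was not tested.

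Across the 4 KO comparisons, 66 members were tested in all. Of these 6 were lower in every one (Dnaja4, Dnajb4, Dnajb7, Dnajb8, Dnajc5b and Hspa1l), and 0 were higher in every one. These shares were 9.09% and 0%, against 5.54% and 0.0807% of the 7433 genes tested in all 4 comparisons. The Dnajb4 falls are those of its brightest probe set. Others measured -0.16 and 0.36 on polysomes, and 0.10 and 0.03 in round spermatids. In the 3 cell fractions Dnajb9, Dnajb13, Dnajc9, Dnajc18 and Hsph1 were lower as well, which makes 11, while Dnajc14, Hspa8, Hspb11 and Hspe1, or 4, were higher. Of the 69 members tested in all 3 that was 15.9% lower and 5.8% higher, beside 11.9% and 9.72% of 7924 genes. The Dnajc18 direction depends on the probe set. In KO round spermatids a dimmer one was higher by 0.65, beside -0.21 for the one used. In KO Leydig cells its probe sets passed at -0.23 and at 0.22. Cct5, Cct6a, Dnaja2, Dnajb12, Hsp90b1, Hspb1 and Hspbp1 passed in none with the scaling and probe set used here and no replicate block. Under quantile normalisation Cct5 (0.41, adjusted p 0.00079) and Hsp90b1 (0.37, 0.019) passed in KO round spermatids, and Cct6a (0.22, 0.001) in KO Leydig cells. Another bright Hsp90b1 probe set was higher by 0.69 in KO round spermatids. Dnajc16, Dnajc21, Dnajc30, Hspa9, Hspa13, Hspb6 and Hspb7 passed in opposite directions in different comparisons, although Hspa9 probe sets passed in both directions within the Leydig comparison. Dnajc6, Dnajc22, Dnajc25, Hspa1b, Hspa12b, Hspb2, Hspb3 and Hspb8 were too dim to be tested in any of the 4.

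WT Leydig cells were compared with the mean of the WT germ cells. The mitochondrial chaperonin stood highest relative to germ cells, Hspe1 by 1.16 ± 0.07 and Hspd1 by 0.93 ± 0.07. Of 70 members 15 were higher and 20 lower (50%), against 52.6% of all genes (30.7% higher and 21.9% lower), and quantile normalisation gave 21 and 14. Hspa1l was higher by 0.28 (adjusted p 0.0049), which missed the threshold without WT Leydig array 2 (0.054). Its mean signal in WT Leydig cells (7437) lay between those of WT spermatocytes (2089) and WT round spermatids (17930). Dnajc12 (1.08 ± 0.06), Dnajc28 (0.67), Hspa8 (0.62), Hspb1 (0.53) and Dnajc11 (0.51) were higher. The germ cell mean joins stages that differed, for Dnajc12, Dnajc28 and Dnajc11 by -2.39, -2.635 and -1.90 from spermatocytes to round spermatids. Hspbap1 (-0.61), Hsp90aa1 (-0.56), Hspa4l (-0.52), Dnajb3 (-0.46), Dnajb12 (-0.44), Dnajc27 (-0.36), Hspb9 (-0.36) and Dnajb1 (-0.33) were lower, although Hspa4l had another probe set at 0.44 and Hspa4 (-0.29) another at 0.66. Without either WT Leydig array the members called numbered 12 and 11 instead of 35.

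The GRTH and IgG precipitates could not be separated. Limma called 0 of 68 members and 0% of all genes, and 364 genes and 1 member had an unadjusted p under 0.05. That member was Dnajb1, the main stress-inducible J protein of the cytosol (-1.71 ± 0.69, unadjusted p 0.031, adjusted p 0.98). Dnajb8 (-1.28) and Dnajc2 (1.03) followed, both with adjusted p 0.98. Another bright probe set of Dnajb1 measured 0.295. Hspe1 shows the spread: 5018 and 1875 with the GRTH antibody, 3649 and 864.7 with IgG. With the replicate block 65 genes (0.715%) and 0 members passed. The ratio of the 3' to the 5' actin probe sets was 3.81 to 12.8 in the precipitates and 1.41 to 2.09 elsewhere, and labelling took 2 rounds for the precipitates alone.

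Partner genes outside the symbol rule were counted from lists of heat shock factors, HSP70 and HSP90 cochaperones, chaperonin partners and endoplasmic reticulum folding genes. Cct8l1, which the chaperonin list also holds, was left out of its counts here as a member. The HSP90 list counts Trap1, itself the mitochondrial HSP90, and the chaperonin list counts Tcp1, itself a CCT subunit. The symbol rule does not take in either. On polysomes 1 of 15 HSP70 cochaperones, 1 of 13 HSP90 cochaperones and 1 of 12 endoplasmic reticulum genes fell, and none rose, where 5.77% of all genes fell and 0.572% rose. The falls were those of Bag1, a nucleotide exchange factor (-1.67 ± 0.23, adjusted p 0.0025), Cdc37l1, a relative of the kinase cochaperone Cdc37 (-1.05 ± 0.25, adjusted p 0.041), and Calr3, the calreticulin of the testis (-1.70 ± 0.31, adjusted p 0.01). None of 11 chaperonin partners or 4 heat shock factor genes passed there. Bag1, Calr3 and Cdc37l1 were also lower in KO round spermatids, by 1.17, 0.93 and 0.81, and higher in WT round spermatids than in WT spermatocytes, by 1.70, 2.85 and 0.55. In KO spermatocytes 4 HSP90 cochaperones rose and 1 fell of 13, and 2 endoplasmic reticulum genes rose and 3 fell of 11, beside 19.6% of all genes higher and 17.8% lower.

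In KO round spermatids 8 of 12 HSP90 cochaperones rose and 2 fell, beside 41% of all genes higher and 22.4% lower, with Tomm34 at 0.54 ± 0.07 and Ttc4 at 0.52 ± 0.07. Of 11 chaperonin partners 4 rose and 1 fell, with the prefoldin subunit Pfdn2 at 0.87 ± 0.07. The endoplasmic reticulum list had 4 up and 2 down of 11, with the disulfide isomerase Pdia6 highest at 0.59 ± 0.06. Of 14 HSP70 cochaperones 4 rose and 2 fell, and Hyou1, an HSP110-type exchange factor for Hspa5, was among the rises (1.06 ± 0.12). Hyou1 also rose in KO spermatocytes (0.74) and KO Leydig cells (0.74), and measured 1.10 on polysomes (adjusted p 0.18). One of 4 heat shock factor genes tested passed in KO round spermatids, Hsf5 (0.58 ± 0.06), a factor of meiotic cells. Between the WT stages 10 of 13 HSP90 cochaperones were lower in round spermatids, among them Tomm34 (-1.96), and 2 were higher, beside 51% of all genes lower and 36.2% higher.

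Promoter windows were found for 67 of the 81 members. A facing pair of heat shock element units (GAANNTTC or TTCNNGAA, searched on both strands) was present in 20 of them (29.9%), against 17% of 27025 genes. The full cAMP response element TGACGTCA was found in 1 (1.49%, against 2.03%), and with 1 base open (TGACGTNA, both strands, which takes in the full element) in 3 (4.48%, against 3.36%). The members with the open form were Hspa1l, Hspa5 and Dnajc27, and Dnajc27 held the full element. From WT spermatocytes to WT round spermatids these changed by 3.09, -0.26 and -0.20, in that order. TATAAA was found in 3 (4.48%, against 15.7%) and CCAAT in 28 (41.8%, against 41.1%), each searched on both strands. Genes with several start sites had several windows, 86 in all for the members, and a gene counted once if any of its windows held the letters.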

How the data were processed

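RNA of 10 sample groups had been hybridised to 28 one-colour Affymetrix mouse arrays. The deposited values are linear intensities, 1 per probe set; the authors' software was GCOS, per the submitters' processing notes, with no version or genome build given in the sources used here. Per the values, 24 deposited columns had a trimmed mean of 500 (2% off each end, a fraction of 0.02) and 4 polysome columns did not, so every column was rescaled to 500. Titles and descriptions disagreed for 4 arrays, and the titles were followed.

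Of 45101 probe sets, 34945 had 1 symbol in the platform annotation, 932 several and 9160 none, and 64 were controls. The brightest probe set stood for each of 18193 genes. Dim genes were left out of every comparison by the median of mean signals over the arrays compared, which left 9097 genes to test, on log2(signal + 16), with limma 3.58.1 (R 4.3.3) and Benjamini-Hochberg adjustment over all of them at 0.05. The number of arrays, 2 to 4 a group, limits the precision. Python 3.11, pandas 2.3.3, numpy 2.4.6 and matplotlib 3.10.9 were used for sequences and figures. The scripts were checked on simulated data.

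Genes named were the testis forms and their general relatives, all Cct, HSP90 and mitochondrial chaperonin members, the 8 largest rises and falls past the threshold in each comparison, members whose probe sets disagreed, up to 3 genes of each partner list, and the 5 nearest patterns of each testis form. Members and lists were chosen with earlier results of these data known. Other members with a value in the text were singled out after their values were seen.

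Same-numbered arrays of a KO comparison deviated together (r 0.41 to 0.632 in polysomes, 0.254 to 0.339 in spermatocytes, 0.142 to 0.22 in round spermatids, and 0.189 to 0.246 between the WT stages, where number 3 had a higher r, 0.266, with another number), so the numbers were taken to pair those arrays, from the data and not from the labels. Each comparison was fitted again with these numbers as a replicate block.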

Additional observations from a re-analysis of the deposited data

Results flagged for a closer look

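In 4 of 142 combinations of a member with a spermatocyte group, 1 array stood apart from its group by Dixon's test, against about 1 in 20 by chance. They were Hspa12a in WT array 2 (207.8), Hspbp1 in WT array 4 (1052), Hspa8 in KO array 1 (3109) and Hspb11 in KO array 4 (3316).

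The KO effect differed between round spermatids and spermatocytes by an interaction term in limma for the following members, given as round spermatids minus spermatocytes on the log2 scale. It was more positive for Hspb7 (0.7223), Dnajc28 (0.6822), Hspa8 (0.6399), Dnajc8 (0.6157), Dnajc12 (0.6134), Dnajc16 (0.594), Hspd1 (0.5841) and Hspe1 (0.5589). It was more negative for Dnajc21 (-0.8495), Dnajc2 (-0.6663), Hspa1l (-0.6566), Dnajb4 (-0.655), Dnajb6 (-0.4949), Cct2 (-0.4104), Dnajb7 (-0.4014) and Hspb9 (-0.3823). Between polysomes and round spermatids it differed for Dnajc5b (-1.396).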

How the results depend on the processing

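Of the alternatives run, 3478 planned and 35 added values kept their direction and side of the threshold, 182 planned and 3 added ones lost a call, 87 gained one and 27 turned. Members called on polysomes numbered 8, against 0 with values as deposited, 28 in a fit over 24 arrays, 21 with the replicate block, 16 with array weights, 3 without the arrays of conflicting description and 5 without those of lowest signal (added after seeing the data). In spermatocytes 19 became 11 with median scaling, 6 in the fit over 24 arrays and 7 with closely matched arrays averaged. In Leydig cells 51 became 15 under an alternative that did not use all 28 arrays. Between precipitates 0 became 18 in a fit over 28 arrays. For WT Leydig against germ cells 35 became 11 in the fit over 24 arrays and 54 with weights. The round spermatid minus spermatocyte effect went from 31 to 13 over 24 arrays and 12 with arrays averaged. The polysome minus round spermatid effect went from 1 to 7 (quantile), 4 (median), 0 (as deposited, no filter, or arrays averaged), 14 (24 arrays), 10 (replicate block), 5 (weights) and 9 (conflicting descriptions out).

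Leaving out 1 array gave 7 to 9 members on polysomes, 14 to 19 in spermatocytes, 36 to 45 in round spermatids, 44 to 48 in Leydig cells, 0 in precipitates, 53 to 59 between stages, 11 to 39 for WT Leydig against germ cells (12 without WT Leydig 1 and 11 without WT Leydig 2), 25 to 36 for the first and 1 to 3 for the second difference of effects (3 without WT polysome 3 or KO polysome 1).

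Quantile normalisation turned, in KO round spermatids, Cct2 (0.00924), Cct3 (0.3383) and Cct4 (0.3242). In KO Leydig cells it turned Cct3 (0.06196), Cct4 (0.01449), Cct5 (0.08146), Hspa2 (0.06514), Hspa5 (0.1293) and Hspa9 (0.07746). Between stages it turned Cct2 (-0.07095), Cct3 (-0.6044), Cct4 (-0.5896), Cct6b (-0.4337), Cct7 (-0.4476) and Hsp90aa1 (-0.1913), and for WT Leydig against germ cells Hspa2 (0.1155). Median scaling turned Cct6a (-0.1468), Cct8 (-0.1552) and Hsp90b1 (-0.1581) in KO Leydig cells. The mean of a gene's probe sets turned Cct4 (0.1189), Hspa4 (0.06939) and Hspa9 (0.0515) there, Dnajc18 (-0.06311), Hsp90aa1 (-0.03853), Hspa4l (-1.258) and Hsph1 (-0.02597) between stages, and Hspa4l (0.0949) for WT Leydig against germ cells. The cause was not tested.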
